A study of Mus musculus with 8 samples.

Results

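CTX-restricted regions are stretches of the mouse genome where a peak of H3K27ac was called in all 4 libraries of CTX neuronal cultures and in none of the 4 libraries of MGE cultures, whether or not the cultures had been depolarised. They were found by merging the peaks of the 8 libraries on chromosomes 1 to 19 and X wherever these overlapped by at least 1 bp. Of 113604 merged regions, 5491 had this pattern, which is 4.83% of them. The mirror pattern, a peak in all 4 MGE lists and in no CTX list, was held by 3041 regions (2.68%), called MGE-restricted here, and 12960 regions had a peak in all 8 lists. The presence of peaks in CTX and their absence in MGE chose the regions, so that contrast is described and carries no test.

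Chromatin immunoprecipitation followed by sequencing gave H3K27ac peaks of primary neurons from C57/BL6 mice, in 4 groups of 2 libraries. The groups were CTX cultures treated with KCl, unstimulated CTX cultures, MGE cultures treated with KCl and unstimulated MGE cultures. All cultures, unstimulated ones included, had been silenced overnight from day 6 in vitro with 1 µM TTX, a blocker of sodium channels, and 100 µM D-AP5, a blocker of NMDA receptors, and the KCl groups then received 55 mM KCl for 2 h on day 7. The design asks how acetylation differs between the cultures and with depolarisation. Titles give CTX cultures as embryonic day 14, the source field gives embryonic day 16 for all libraries, and the cell type field reads primary cortical neurons for the MGE libraries too. Titles call replicates 1 and 2 biological, without saying which animals or cultures were kept apart, so a p-value measures only how far these libraries spread, and part of that spread may be technical.

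Acetylation of lysine 27 on histone H3 marks active promoters and enhancers, and enhancers far from gene starts differ more between cell types than promoters do. Projection neurons of the cortex use glutamate and descend from dorsal progenitors that express Emx1 and Pax6. In that lineage the basic helix-loop-helix factor Neurog2 acts ahead of Neurod1, Neurod2, Neurod6 and the T-box factor Tbr1. The medial ganglionic eminence, for which MGE is the usual abbreviation, produces GABAergic interneurons and is patterned by Nkx2-1 and then Lhx6.

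Few CTX-restricted regions lay over a listed gene start. Of the 5491, 74 (1.35%) held the start of a protein-coding gene listed in the RefSeq promoter table for GRCm38.p6, which has the coordinates of mm10, and 191 lay within 2 kb of one. The promoter table holds only 17274 of the 21631 protein-coding genes, so both counts are lower bounds. No such share is given here for other classes of regions. Starts of 5 regulators of cortical development among those covered were picked as examples. Starts of other genes, Sp8 and Prdm8 among them, were covered too. The 300 bases around 1 start of each of the 5, 250 before and 50 after, are shown 5′ to 3′ on the strand of the gene. A CTX-restricted region covered each start shown. Capitals mark CpG dinucleotides, the bases that can carry DNA methylation and that cluster in promoters of widely used genes.
Neurod6: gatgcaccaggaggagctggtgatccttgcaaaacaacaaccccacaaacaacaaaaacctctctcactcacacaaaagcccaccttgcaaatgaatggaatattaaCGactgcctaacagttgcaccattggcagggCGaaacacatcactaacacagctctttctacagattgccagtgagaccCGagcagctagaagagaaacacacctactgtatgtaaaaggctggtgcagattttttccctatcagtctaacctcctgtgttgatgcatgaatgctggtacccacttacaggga
Emx1: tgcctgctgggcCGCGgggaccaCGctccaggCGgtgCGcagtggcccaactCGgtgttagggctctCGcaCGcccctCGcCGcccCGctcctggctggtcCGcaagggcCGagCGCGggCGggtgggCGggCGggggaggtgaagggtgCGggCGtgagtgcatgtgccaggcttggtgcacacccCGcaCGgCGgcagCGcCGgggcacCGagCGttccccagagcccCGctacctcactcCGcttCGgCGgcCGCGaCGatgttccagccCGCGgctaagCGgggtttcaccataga
Neurog2: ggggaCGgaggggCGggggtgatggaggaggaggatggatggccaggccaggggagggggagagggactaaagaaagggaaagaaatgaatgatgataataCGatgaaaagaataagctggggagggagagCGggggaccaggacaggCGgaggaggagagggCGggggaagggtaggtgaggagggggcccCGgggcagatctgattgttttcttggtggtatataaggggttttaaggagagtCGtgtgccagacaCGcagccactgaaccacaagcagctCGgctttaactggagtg
Nfia: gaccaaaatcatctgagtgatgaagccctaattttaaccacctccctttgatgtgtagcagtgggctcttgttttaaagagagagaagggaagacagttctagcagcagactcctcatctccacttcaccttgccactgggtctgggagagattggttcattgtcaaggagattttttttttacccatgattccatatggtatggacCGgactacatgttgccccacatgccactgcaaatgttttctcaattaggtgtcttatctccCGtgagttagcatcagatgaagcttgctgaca
Nfix: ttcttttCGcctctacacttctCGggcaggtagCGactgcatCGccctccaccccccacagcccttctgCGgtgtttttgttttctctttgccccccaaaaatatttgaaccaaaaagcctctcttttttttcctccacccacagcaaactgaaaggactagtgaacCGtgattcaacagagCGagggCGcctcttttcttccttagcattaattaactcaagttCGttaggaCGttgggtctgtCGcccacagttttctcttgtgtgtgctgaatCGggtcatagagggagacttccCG

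Neurod6, a factor of maturing projection neurons, has this window at chr6:55681214-55681513 on the minus strand, and its promoter held 3 CpG at 46.3% G and C. Emx1, the homeobox factor of the dorsal telencephalon, is at chr6:85187681-85187980 on the plus strand, and its promoter held 37 CpG at 74.0% G and C. Neurog2, at chr3:127632886-127633185 on the plus strand, held 10 CpG at 58.0%. The windows of Nfia at chr4:97581693-97581992 (plus strand) and Nfix at chr8:84780033-84780332 (minus strand), members of the nuclear factor I family, held 2 and 13 CpG. The Nfia start shown lies inside the gene, whose span begins at chr4:97578066. Another listed start of Nfix, at chr8:84772875, also lay in a CTX-restricted region and is not shown. The Emx1 window thus stood at the CpG-dense end of these 5, and those of Nfia and Neurod6 at the sparse end.

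Promoters whose start lay inside CTX-restricted regions had a lower CpG content than those with a start inside regions of all 8 lists. The promoter table gave 85 windows of 72 coding genes with a start inside CTX-restricted regions, 19 windows of 17 genes for MGE-restricted regions, Lhx6 among them, and 7352 windows for regions of all 8 lists. The median ratio of observed to expected CpG was 0.441 in the CTX-restricted windows, 0.437 in the MGE-restricted windows, 0.817 in windows of all 8 lists and 0.574 in all 21020 windows of the table. The ratio passed 0.6, a common bound for a CpG island, in 31.8% of CTX-restricted windows, 21.1% of MGE-restricted windows, 82.6% of windows of all 8 lists and 48.1% of all windows.

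The 6 short motifs below were searched on both strands of the same windows. The E-box CAGATG, bound by the NeuroD and neurogenin factors, was in 14.1% of CTX-restricted windows, 21.1% of MGE-restricted windows and 14.4% of all windows. The E-box CAGCTG, bound by Ascl factors, was in 25.9% of CTX-restricted windows, 31.6% of MGE-restricted windows and 15.7% of all windows. The homeobox core TAATTA was in 8.24%, against 0% of MGE-restricted windows and 4.48% of all windows. These shares rest on few windows, and the E-box words differ in their central bases, so a match to one is no match to another. CATATG, the T-box core GGTGTGA and the AP-1 site TGANTCA were in 3.53%, 4.71% and 5.88% of CTX-restricted windows, against 3.04%, 3.68% and 7.04% of all windows. Of the 5 windows above, that of Nfia held 2 matches to CAGATG and 1 to CATATG, and that of Nfix held 1 TAATTA and 1 AP-1 site.

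The marker genes of the labelled cultures were first checked by called length, the number of base pairs inside peaks, over each gene and 10 kb on either side. Of 40 projection neuron factors, 4 (Neurod1, Neurod6, Neurog2 and Emx1) had peaks in all 4 CTX libraries and 0 bp in every MGE library. Of 30 MGE and GABAergic markers, 3 (Nkx2-1, Lhx6 and Npy) had peaks in all 4 MGE libraries and 0 bp in every CTX library. The other markers did not divide the cultures in this way. Tbr1 had 0, 529, 545 and 257 bp in the MGE libraries, and Slc17a7, a gene of glutamate release, had 725 to 1069 bp there. Sst had 459, 785, 0 and 625 bp in the CTX libraries. The CTX cultures also held acetylation at GABAergic genes, since Dlx1, Dlx2, Dlx5, Dlx6, Gad1 and Slc32a1 had peaks in all 8 libraries. The KCl-treated CTX lists had 45059 and 66827 peaks and the unstimulated CTX lists 41537 and 64878. The KCl-treated MGE lists had 36035 and 49635 peaks and the unstimulated MGE lists 38411 and 36241, and read depth is unknown. The larger CTX lists bear on the count: with every list reduced to its strongest peaks and equal called bases, 1547 regions were CTX-restricted and 2975 MGE-restricted, so the order of the counts turned round.

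**Figure D1:**
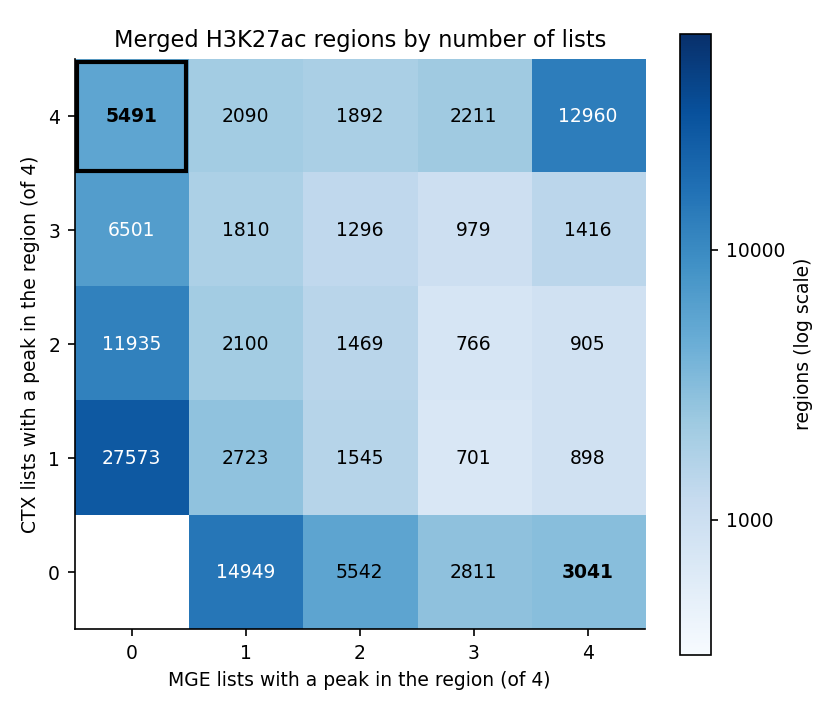
Number of merged H3K27ac regions by how many of the 4 CTX lists (vertical axis) and how many of the 4 MGE lists (horizontal axis) had a peak there, with colour on a log scale. The outlined cell holds the 5491 CTX-restricted regions, the bold cell at the lower right the 3041 MGE-restricted regions, and the upper right cell the 12960 regions in all 8 lists.

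The grid of list counts shows what lay next to the chosen pattern. A peak in all 4 CTX lists and in 1 MGE list was found at 2090 regions, and a peak in 3 CTX lists and no MGE list at 6501. The absent CTX list was usually a replicate 1 library: KCl replicate 1 for 2967 regions (45.6%) and unstimulated replicate 1 for 3012 (46.3%), against 236 and 286 for the replicate 2 libraries of KCl and unstimulated cultures. The lone MGE list was KCl replicate 2, the longest MGE list, for 1309 of the 2090 regions (62.6%). The lists with fewest CTX peaks and most MGE peaks thus set most of the boundary. Without CTX KCl replicate 1 the rule gave 8509 regions, and without CTX unstimulated replicate 1 it gave 8520.

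Median width was 873 bp for CTX-restricted regions, 1035 bp for those with 1 MGE list and 668 bp for those with 3 CTX lists. A merged region spans all its peaks, so more lists give wider regions by construction. The fold enrichment of a peak, a value from the authors' lists, was ranked within its own list. The median percentile of CTX-restricted regions was 42.9 and 56.6 in the KCl and 42.8 and 54.4 in the unstimulated libraries, against 45.1 and 58.0, and 43.0 and 55.4, for those with 1 MGE list, and 39.1 and 45.1, and 38.9 and 44.1, for those with 3 CTX lists. Just outside lay, with 1 MGE list, a region near the DNA methyltransferase gene Dnmt3b (chr2:153712494-153713375) and, with 3 CTX lists, a region in the dopamine receptor gene Drd3 (chr16:43776856-43777542).

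CTX-restricted regions were of middling rank in their own lists, and regions of all 8 lists ranked far higher. Those of all 8 lists had median percentiles of 79.3 and 83.5 in CTX KCl and 76.0 and 85.6 in CTX unstimulated libraries. MGE-restricted regions stood at 41.8 and 49.3 in the KCl-treated MGE libraries and 42.3 and 40.7 in the unstimulated MGE libraries, close to the CTX-restricted ones in CTX. Median fold enrichment of CTX-restricted regions was 3.12 and 3.59 with KCl and 3.18 and 3.35 unstimulated, against 3.22 and 3.46, and 3.28 and 3.28, for all peaks of those lists.

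The pattern was also described with the libraries split by replicate number: regions were chosen on the replicate 1 libraries alone and looked up in the replicate 2 libraries, and the reverse. All 8 lists entered the membership rule, so a region that holds the whole pattern in both numbers is largely a CTX-restricted region again, and the shares below describe the lists and support nothing further. Of 8866 regions restricted to CTX in replicate 1, 95.9% had a peak in CTX KCl replicate 2, 94.9% in CTX unstimulated replicate 2, 24.3% in KCl-treated MGE replicate 2 and 12.8% in unstimulated MGE replicate 2. Of all 78586 regions with a peak in any replicate 1 list, the shares in the same 4 lists were 62.3%, 59.6%, 50.3% and 38.6%. Of 17730 regions chosen on replicate 2, the replicate 1 lists held 52.7% in CTX KCl, 52.0% in CTX unstimulated, 2.33% in KCl-treated MGE and 4.88% in unstimulated MGE cultures, against 37.6%, 33.6%, 29.2% and 30.3% of all 104556 regions with a peak in any replicate 2 list. The lower return in that direction came with the shorter CTX lists of replicate 1.

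**Figure D2:**
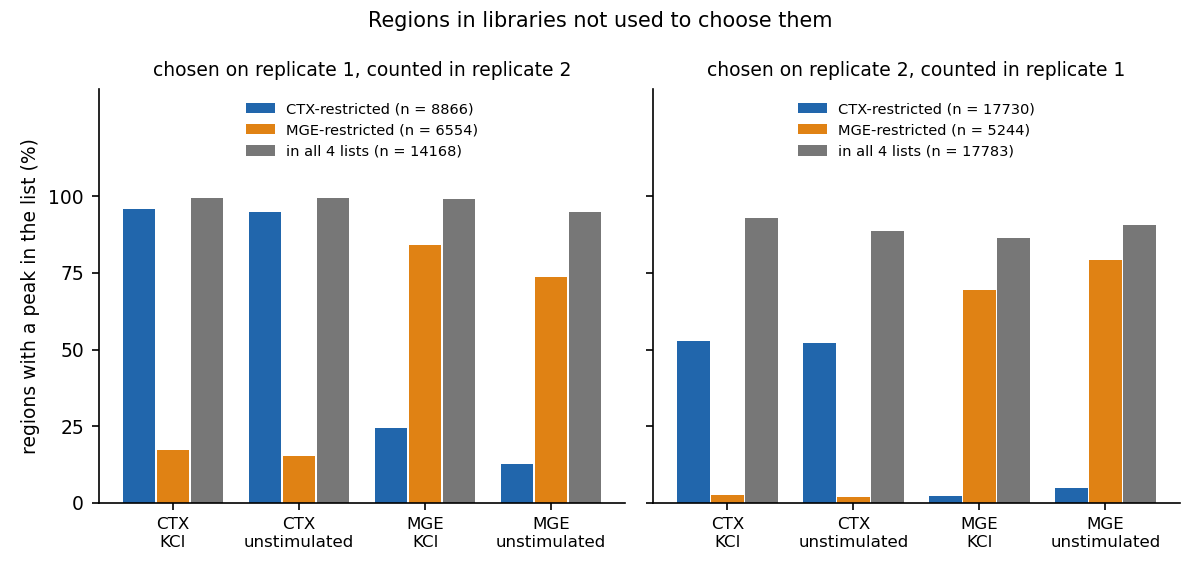
Share of regions (%, vertical axis) with a peak in each library of the replicate that was not used to choose them, for regions chosen as CTX-restricted (blue), MGE-restricted (orange) or present in all 4 lists (grey) of 1 replicate. In both panels the blue bars are higher in CTX than in MGE libraries, with 95.9% and 94.9% in CTX and 24.3% and 12.8% in MGE on the left. On the right they are 52.7% and 52.0% in CTX and 2.33% and 4.88% in MGE. There the grey bars in CTX are 93.0% and 88.8%, and the orange bars in MGE 69.3% and 79.3%. The rule for CTX-restricted regions used the lists of both replicates, so these shares describe the lists and support nothing further.

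Most CTX-restricted regions lay away from gene ends. Of them 356 (6.48%, 95% Wilson interval 5.86 to 7.17) lay within 2 kb of either end of a protein-coding gene, 2298 (41.9%) elsewhere in a gene span and 2837 (51.7%) outside genes. The share at gene ends was 3.42% (2.83 to 4.13) for MGE-restricted regions and 62.3% (61.5 to 63.1) for regions of all 8 lists, and 14.7% for all merged regions. These intervals cover counting error only, and regions of 1 gene are not independent. Both culture-restricted classes thus sat mostly in gene bodies and between genes, and the shared class at gene ends.

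**Figure D3:**
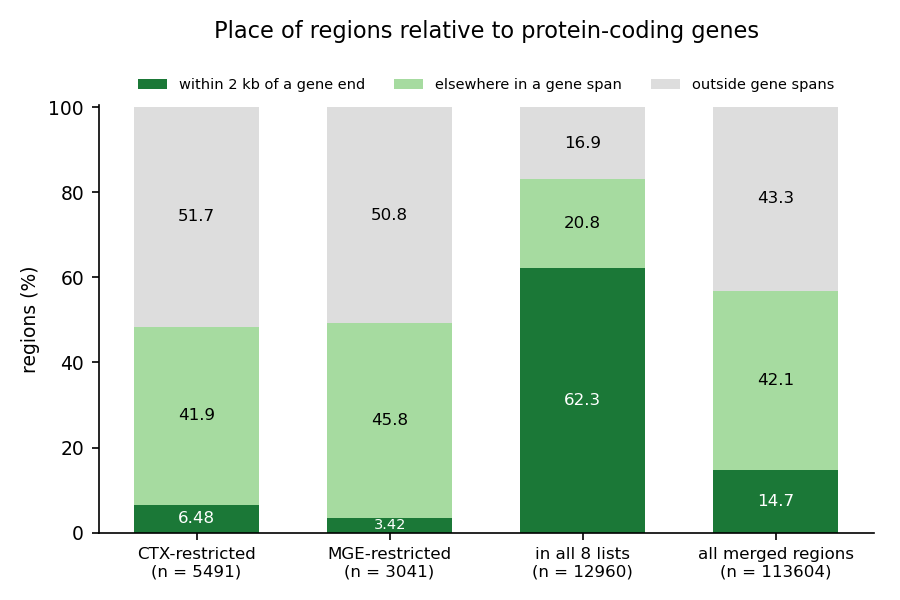
Share of regions (%) within 2 kb of either end of a protein-coding gene, elsewhere in a gene span, or outside gene spans, for 4 classes of merged regions. CTX-restricted regions had 6.48% at gene ends, MGE-restricted regions 3.42%, and regions of all 8 lists 62.3%.

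CTX-restricted regions were 300 to 3257 bp wide, with a median of 873 bp, and covered 5.35 Mb. Median widths were 826 bp for MGE-restricted regions and 1446 bp for regions of all 8 lists. The next region of the same class was a median of 60.9 kb away for CTX-restricted regions and within 10 kb for 24.7% of them, against 29.2% of MGE-restricted regions and 22.9% of regions of all 8 lists. The nearest MGE peak was a median of 13.1 kb away, but 6.85% had one within 500 bp. Of the chromosomes, X had the lowest share, with 56 of its 2206 merged regions (2.54%) CTX-restricted, against 3.82% to 5.75% on the autosomes.

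At the genes of the bHLH and T-box cascade of projection neurons, CTX-restricted regions covered or flanked the gene itself. Called length in the region over the Neurod6 start (chr6:55681216-55682670) was 961 and 1367 bp with KCl and 826 and 1007 bp unstimulated. A region 32.7 kb downstream of the same start (chr6:55646839-55648530) had 1068 and 1300 bp with KCl and 348 and 775 bp unstimulated. Both KCl libraries exceeded both unstimulated libraries at the distal region and overlapped with them at the start. The nearest MGE peak to the start was 62.8 kb away.

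The region over the Neurog2 start (chr3:127632741-127633524) had 512 and 611 bp with KCl and 381 and 539 bp unstimulated, and no MGE peak within 79.2 kb. Neurod1, which acts in newborn neurons, had 514 and 1058 bp with KCl and 547 and 1376 bp unstimulated (chr2:79454020-79455395, 1.24 kb past its start). Neurod2, a factor of differentiating projection neurons, had 1122 and 1821 bp with KCl and 579 and 1383 bp unstimulated (chr11:98327736-98329556). At each of these 3 genes the treatments overlapped, and replicate 2 had the longer calls within each treatment. The nearest MGE peak was 73.2 kb from the Neurod1 region and 8.92 kb from that of Neurod2.

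Tbr1, which specifies early-born deep-layer neurons, had 821 and 1645 bp with KCl and 1060 and 1464 bp unstimulated (chr2:61804662-61806306). Emx1 had 1146 and 1248 bp with KCl and 282 and 1321 bp unstimulated over its start (chr6:85187281-85188864), and a second region 1.77 kb downstream (chr6:85189702-85191251) had 279 and 1039 bp with KCl and 634 and 1214 bp unstimulated. Zbtb18, a repressor needed for cortical neuron differentiation, had 1458 and 1547 bp with KCl and 1626 and 1851 bp unstimulated (chr1:177446553-177448403). The nearest MGE peak was 9.31 kb from the Tbr1 region and 3.31 kb from that of Zbtb18. Only at Zbtb18 among these 3 genes were both unstimulated libraries above both KCl libraries. Fold enrichment percentiles over the 4 CTX lists ran from 0.4 to 0.856 at Zbtb18 and from 1.47 to 4.54 at Tbr1. They ran from 1.65 to 12.2 at Neurod2, 9.86 to 33.8 at Neurod1 and 40.5 to 88.9 at Neurog2. With a −log10 q of at least 5, Neurod6 had a CTX-restricted region, and Neurod1, Neurod2, Neurog2, Tbr1, Emx1 and Zbtb18 had none. At equal called bases Neurod2, Neurod6, Tbr1 and Zbtb18 had one.

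**Figure D4:**
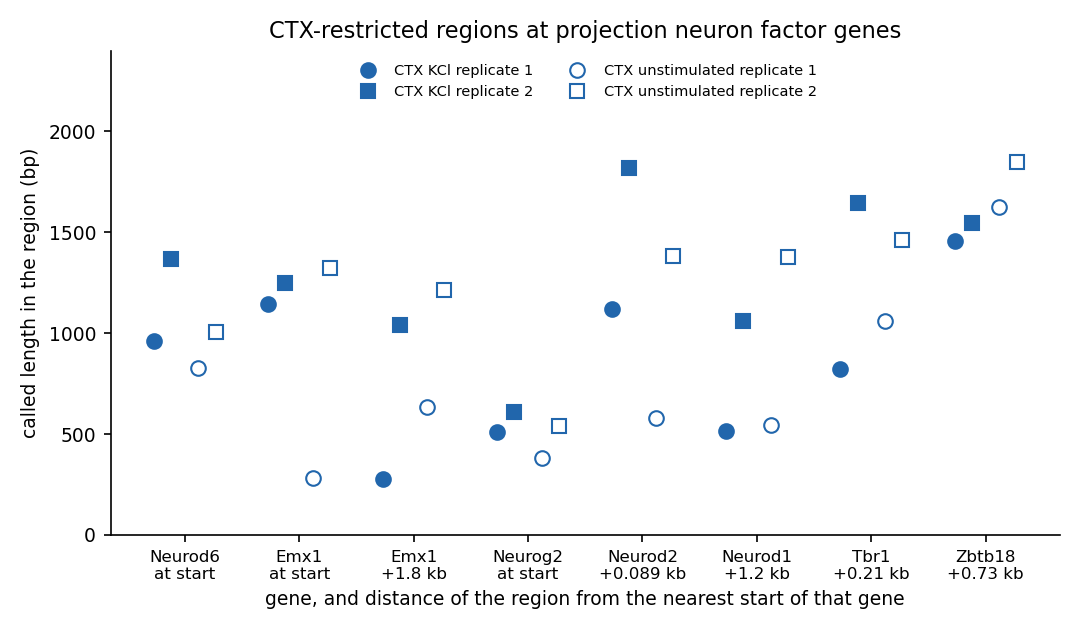
Called length (bp, vertical axis) of CTX-restricted regions at 7 genes of projection neuron factors in each of the 4 CTX libraries; filled symbols are KCl and open symbols unstimulated cultures, circles replicate 1 and squares replicate 2. All MGE libraries had 0 bp by the choice of regions, and KCl and unstimulated values overlap at each region drawn except that of Zbtb18.

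Regions were assigned to the closest protein-coding gene span, up to a distance of 100 kb. This placed 4200 CTX-restricted regions at 2567 of 21631 genes (11.9%) and left 1291 (23.5%) without a gene, and MGE-restricted regions were at 1447 genes (6.69%). Genes with both kinds numbered 505, which is 19.7% of genes with a CTX-restricted region and 34.9% of genes with an MGE-restricted one. Exactly 1 region was held by 1693 genes, 2 to 4 by 778 and 5 or more by 96. Long genes collect more regions, and the median span was 396.6 kb for those 96 genes, 74.5 kb for all genes with a CTX-restricted region and 17.3 kb for all genes.

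The 10 genes with most CTX-restricted regions had 9 to 17 each. Dlg2, a scaffold of the postsynaptic density, had 17, and 6 MGE-restricted regions. Celf2, an RNA-binding protein, had 13 and 5, Auts2, a regulator of neurodevelopment, 11 and 4, the adhesion molecule gene Cntn5 11 and 6, and the synaptic gene Anks1b 10 and 4. Dgkb, a diacylglycerol kinase, had 10 and 1. Nckap5 with 10, Tiam2, an activator of Rac, with 10, Nfia with 9 and Tmem108 with 9 had no MGE-restricted region. Divided by gene span, the number per 100 kb ran from 0.862 at Dlg2 to 3.23 at Tmem108 and 5.18 at Tiam2, the highest of the 10. Regions up to 100 kb outside a gene count in this number but not in the span, which raises it most for shorter genes.

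Among genes of 14 lists chosen for the tissue, factors of projection neurons were often near a CTX-restricted region. Of 40 such genes, 25 (62.5%) had one and 9 (22.5%) had an MGE-restricted region, against 11.9% and 6.69% of all genes. The median span of the 40 was 60.45 kb. Sox5, a regulator of the timing of deep-layer neurons, had 7 regions, Nfia 9, Nfib and the Fog family member Zfpm2 5 each, and Nfix, Bcl11b, Foxp1, Mef2c and Myt1l 3 each. The widest region of Nfib, 29.6 kb outside the gene (chr4:82536357-82539226), had 2647 and 2870 bp with KCl and 1262 and 2606 bp unstimulated. With all lists reduced to equal called bases the counts were 13 genes (32.5%) with a CTX-restricted and 11 genes (27.5%) with an MGE-restricted region, against 4.29% and 6.99% of all genes in that setting.

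Genes of glutamate signalling and of axon guidance were also frequent, and these are long genes. Of 30 glutamate genes, 15 (50%) had a CTX-restricted region and 12 (40%) an MGE-restricted one, with a median span of 232 kb. At equal called bases this order turned, with 9 and 12 genes, as it did for all genes (4.29% and 6.99%). Grm3, a metabotropic glutamate receptor, had 6 CTX-restricted regions and the nearest MGE peaks were 21.5 to 170 kb from them. The one at chr5:9540757-9542038 had 1221 and 1253 bp with KCl and 1242 and 517 bp unstimulated. Of 50 genes of axon guidance and adhesion, 32 (64.0%) had a CTX-restricted and 22 (44.0%) an MGE-restricted region, with 16 genes holding both kinds and a median span of 370 kb. At equal called bases that order turned too, with 15 and 20 genes. With a −log10 q of at least 5 the glutamate list had 7 and 4 genes and the axon guidance list 12 and 1. All genes stood at 2.93% and 1.43% in that setting. Examples were the teneurin Tenm4 with 8 regions, the semaphorin receptor Plxna2 and the cadherin Cdh13 with 6 each, Robo2, a receptor for Slit proteins, with 5, and the netrin receptor Dcc with 4.

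GABAergic and MGE markers had the opposite order. Of 30, 6 (20%) had a CTX-restricted region, namely Sox6, Dlx2, Dlx5, Gad1, Elmo1 and Mef2c, and 13 (43.3%) had an MGE-restricted one, Lhx6, Sst and Npy among them. The list held 15 CTX-restricted and 37 MGE-restricted regions, and at equal called bases 4 of its genes (13.3%) had a CTX-restricted and 12 (40%) an MGE-restricted region, against 4.29% and 6.99% of all genes. Leaving out CTX KCl replicate 1, CTX unstimulated replicate 1 or MGE KCl replicate 2 gave 12, 10 or 11 genes of this list with a CTX-restricted region in place of 6. Sox6, which acts in interneurons and also in other lineages, had 5 CTX-restricted regions, including the widest of all, 3257 bp in the gene body (chr7:115623836-115627092), with 1505 and 2673 bp with KCl and 1818 and 2276 bp unstimulated. The 3 regions at Dlx2, a factor of GABAergic neurons, lay 63.4 to 89.1 kb upstream of it, with the nearest MGE peaks 0.09 to 5.65 kb away. Gad1, which makes GABA, had 246 and 807 bp with KCl and 633 and 1215 bp unstimulated at a region 30 kb past its start (chr2:70592110-70593617).

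Interneurons of the caudal ganglionic eminence and neurons of the lateral eminence and striatum are other GABAergic cells. Of 14 caudal markers, 6 (42.9%) had a CTX-restricted and 4 an MGE-restricted region, and Sp8, a zinc finger factor of that lineage, had 4 CTX-restricted ones. The region at its start (chr12:118847440-118848781) had 294 and 1338 bp with KCl and 346 and 1336 bp unstimulated. Of 20 lateral and striatal markers, 9 (45.0%) had a CTX-restricted and 5 an MGE-restricted region, but Foxp1, Foxp2 and Bcl11b stand in the projection neuron list too. At equal called bases both orders turned, with 3 and 4 caudal genes and 4 and 5 lateral and striatal genes. The order turned for all genes as well, at 4.29% and 6.99%. With a −log10 q of at least 5 the counts were 4 and 0 caudal genes, and 1 and 0 lateral and striatal genes. Of 14 markers of Cajal-Retzius cells, the early reelin-secreting cells of the cortex, Calb2 had a CTX-restricted and Reln an MGE-restricted region.

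CTX-restricted regions were also found at glial and progenitor genes. Of 16 genes of the oligodendrocyte lineage, 7 (43.8%), namely Olig1, Olig2, Sox10, Pdgfra, Cspg4, Mbp and Cldn11, had 16 CTX-restricted regions between them, and none had an MGE-restricted one. At equal called bases the numbers were 6 genes with a CTX-restricted and 1 with an MGE-restricted region, and without CTX unstimulated replicate 1 there were 11 genes with a CTX-restricted region. A region 33.8 kb upstream of Olig2, the lineage's master factor (chr16:91190292-91191701), had 1199 and 1360 bp with KCl and 1056 and 1156 bp unstimulated, so both KCl values lay above both unstimulated ones. KCl calls were longer in this way at 15.2% of CTX-restricted regions and 26.3% of all regions in the 4 CTX lists. An MGE peak lay 0.308 kb from the Olig2 region. Pdgfra, the growth factor receptor of oligodendrocyte precursors, had 1083 and 1894 bp with KCl and 591 and 1685 bp unstimulated just past its start (chr5:75152877-75154801).

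Of 20 astrocyte genes, 7 (35.0%) had a CTX-restricted region, Gfap, Slc1a3, Fgfr3, Slc4a4, Id3 and Apoe among them, and 1 had an MGE-restricted region, and at equal called bases 4 had a CTX-restricted and 1 an MGE-restricted region. Apoe, the lipid carrier made by astrocytes, had 797 and 1310 bp with KCl and 798 and 1036 bp unstimulated over its start (chr7:19698368-19699806). Of 20 progenitor genes, 5 (25%), namely Sox2, Pax6, Sox1, Hopx and Notch1, had one and 1 had an MGE-restricted region, with 3 and 1 at equal called bases. Of 20 endothelial and mural genes, 6 (30%) had a CTX-restricted and 1 an MGE-restricted region, but 1 and 2 at equal called bases and 0 and 1 with a −log10 q of at least 5. All genes stood at 4.29% and 6.99% at equal called bases, and at 2.93% and 1.43% at that q. No gene of 14 microglial markers had a CTX-restricted region, and 1, Csf1r (7.14%), had an MGE-restricted one, against 6.69% of all genes.

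Over the whole lists, called length per Mb called ran at 782 to 981 bp in CTX and 262 to 462 bp in MGE libraries for the oligodendrocyte lineage, and at 1270 to 1550 bp and 452 to 935 bp for astrocytes. For progenitors it was 1190 to 1400 bp in CTX and 462 to 939 bp in MGE, and for endothelial and mural genes 476 to 567 bp and 229 to 375 bp. Projection neuron factors had 5800 to 7710 bp in CTX and 4270 to 4900 bp in MGE, and MGE and GABAergic markers 2560 to 3040 bp and 3640 to 4080 bp. No range of CTX overlapped that of MGE for these 6 lists. Some single genes had peaks in all 4 CTX libraries and 0 bp in all MGE libraries. They were Cspg4, Cldn11 and Gpr17 of 16 oligodendrocyte genes, Aqp4 and Apoe of 20 astrocyte genes, and Hopx of 20 progenitor genes. Cspg4 stands in the endothelial and mural list too. The oligodendrocyte gene Mog was not lower in MGE, with a called length of 2402 to 2718 bp in CTX and 2588 to 3411 bp in MGE. Markers of Cajal-Retzius cells (207 to 302 bp in CTX, 598 to 752 bp in MGE) and microglia (85 to 146 and 201 to 282 bp) lay apart with MGE higher. Ranges overlapped for the glutamate, axon guidance, caudal, lateral and striatal, immediate early and late activity-regulated lists. In lists of peaks from whole cultures, more cells of a type and more acetylation per cell cannot be told apart, and the part of glial cells and progenitors in the CTX-restricted regions was not tested.

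**Figure D5:**
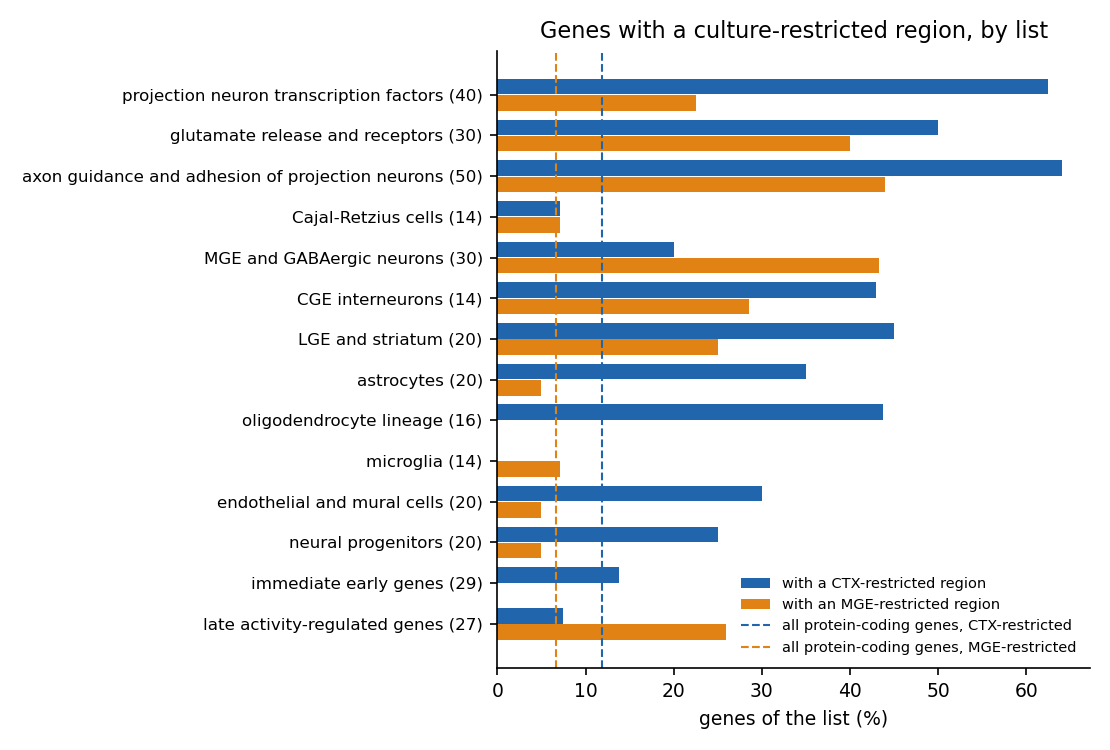
Share of the genes of each list (%, horizontal axis) with at least 1 CTX-restricted region (blue) or MGE-restricted region (orange); numbers in parentheses are genes measured, and dashed lines give all protein-coding genes, 11.9% and 6.69%. Projection neuron factors reach 62.5% and 22.5%, oligodendrocyte lineage genes 43.8% and 0%, and MGE and GABAergic markers 20% and 43.3%.

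The chart of gene lists places these groups side by side with activity-regulated genes, which depolarisation is known to induce. Of 29 immediate early genes, 4 (13.8%), namely Fos, Nr4a1, Sik1 and Csrnp1, had a CTX-restricted region, near the 11.9% of all genes, and none had an MGE-restricted one. Of 27 late activity-regulated genes, Nptx2 and Plk2 (7.41%) had one and 7 (25.9%) had an MGE-restricted region. The region of Fos, the transcription factor gene induced within minutes of activity, lay 49.7 kb downstream of its start (chr12:85523590-85525180), with 952 and 1337 bp with KCl and 889 and 721 bp unstimulated, so KCl values lay above unstimulated ones. Plk2, a kinase of synaptic scaling, had 467 and 312 bp with KCl and 668 and 729 bp unstimulated (chr13:110444864-110445701), the reverse order. Of all CTX-restricted regions, 15.2% had the order of the Fos region and 13.6% that of the Plk2 region. The shares were 26.3% and 9.75% of all regions in the 4 CTX lists.

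The summed length of the CTX-restricted regions differed between KCl and unstimulated cultures by less than the spread between libraries. It was 3.052 and 4.264 Mb with KCl and 3.058 and 4.279 Mb unstimulated, or 3.658 ± 0.857 and 3.668 ± 0.864 Mb (SD, n = 2 each). The difference was -0.0104 Mb with a two-sided exact permutation p of 0.667, and 0.33 is the smallest p that 2 against 2 libraries can give. Replicate 2 libraries lay above replicate 1 libraries in both treatments, and the treatments overlapped. As a share of each list these regions made up 107.3 and 95.35 kb per Mb called with KCl and 129.9 and 99.65 kb per Mb unstimulated, a difference of -13.5 (exact permutation p = 0.667). Requiring peaks in all 4 CTX lists leaves out regions that appear or vanish with KCl, which limits the changes that can be seen here to length.

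Region by region, longer and shorter calls with KCl were about equally frequent. Of the 5491, 835 (15.2%) had a longer call in each KCl library than in each unstimulated library, against 26.3% of all 24644 regions in the 4 CTX lists, and 745 (13.6%) a shorter one, against 9.75%. For regions of all 8 lists the shares were 33.5% longer and 7.77% shorter, and for regions with 1 MGE list 18.1% and 10.3%. At equal called bases 18.2% of CTX-restricted regions were longer and 10.9% shorter, against 35.6% and 7.45% of the other regions in the 4 CTX lists. Within replicate numbers, 29.6% of CTX-restricted regions were longer with KCl in both numbers and 27.8% shorter in both, against 43.6% and 20% of all regions in the 4 CTX lists. Leaving out CTX KCl replicate 1 gave 41.3% longer and 23.2% shorter, and leaving out CTX KCl replicate 2 gave 18.5% and 46.4%. Without CTX unstimulated replicate 1 the shares were 23.7% and 39.8%, and without replicate 2 they were 47.1% and 17.2%. With a library left out a region has fewer pairs of libraries to satisfy, and a lone list of 1 number is set against lists of both, of which those of replicate 2 are the longer, so these shares rise and tilt by construction.

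Regions at or within 2 kb of a listed gene start were ranked by called length, and the first 10 were taken. C1ql3, a secreted synaptic organiser, had 671 and 2296 bp with KCl and 1584 and 2359 bp unstimulated over its start (chr2:13009466-13011946). Dll3, a Notch ligand family member, had 1544 and 1849 bp with KCl and 957 and 1992 bp unstimulated (chr7:28301134-28303125). Synpr, a synaptic vesicle protein, had 1375 and 1623 bp with KCl and 1113 and 1589 bp unstimulated (chr14:13452763-13454412). Treatments overlapped at all 3. A region 0.033 kb from the start of Prex1, an activator of Rac (chr2:166711662-166713799), had 1987 and 1815 bp with KCl and 1406 and 1267 bp unstimulated, and there KCl values did not overlap unstimulated ones. Celf2, Zbtb18, the inhibin gene Inhbe, Rlbp1, Pdgfra and Grid2ip completed the 10. An MGE peak lay 0.35 kb from the Prex1 region and 0.343 kb from that of Celf2. At the others of the 10 the nearest was 1.76 to 26.2 kb away.

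The widest regions besides that of Sox6 were in Frem1, an extracellular matrix gene (chr4:82914603-82917829, 3227 bp), at Zic2, a zinc finger factor of the forebrain (chr14:122474440-122477642, 3203 bp), at Nfib (2870 bp) and in Sox5 (chr6:144418326-144421056, 2731 bp). Their fold enrichment percentiles over the 4 CTX lists ran from 3.51 to 13.0 for Sox6, from 6.05 to 18.4 for Frem1, from 4.03 to 30.8 for Zic2, from 0.154 to 0.506 for Nfib and from 18.2 to 40.9 for Sox5. The regions of highest percentile were narrower. A region 2.87 kb from the olfactory receptor gene Olfr994 (chr2:85426363-85427008) stood at or above percentile 99.4 in each CTX list, with 568 and 607 bp with KCl and 603 and 613 bp unstimulated. A region with no protein-coding gene within 100 kb (chr17:93363497-93364128) stood at or above 95.6. The other 8 of the 10 highest lay nearest Ctsl, Zfp622, Ccdc88a, Tspan12, Car8, Smc1b and Tm9sf2 or, at chr1:47182628-47183470, no gene.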

How the data were processed

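H3K27ac peaks of 8 libraries were analysed, 1 list per library in broad-peak format, called separately per library and carrying the word unfiltered in their peak names, as deposited. Per the submitters' processing notes, the build was mm10 and the tools were MACS3 3.0.0a7, Bowtie2 2.3.3, deepTools 3.4.3 and cutadapt 1.18. Roles, settings, any input control and duplicate handling were not given in the sources used here. For each peak the authors deposited a fold enrichment (a linear ratio), −log10 p and −log10 q values and a score, which were used only to filter or rank within a list. List minima of −log10 q were 1.3 to 1.35. Lists covered 21.1 to 44.7 Mb, and the absence of a peak from a list does not show absence of acetylation.

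Peaks on chromosomes 1 to 19 and X that overlapped by 1 bp were merged with Python 3.11.15, numpy 2.4.6 and pandas 2.3.3, in steps checked on simulated lists. Genes were the 21631 protein-coding genes of the RefSeq table for GRCm38.p6. Starts come from the RefSeq promoter table, which holds 17274 of these genes, so location was classed by gene ends where the plan named starts. Groups were compared over libraries with exact permutation tests. The members, gene lists and rules were chosen with earlier results of these data known. Named were the 10 genes with most regions, the 10 regions of highest percentile, the 5 widest, the 10 within 2 kb of a listed start with most called length, and listed genes with a region, with values for up to 6 per list. Some genes stand in several lists, and values of some listed genes are not reported here. Alternatives were a −log10 q of at least 5, lists reduced to equal called bases, peaks up to 500 bp apart merged, a 10% minimum cover, distances of 50 kb to a gene and 5 kb to a gene end, a pairing by replicate number, and each library left out.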

Additional observations from a re-analysis of the deposited data

Results flagged for a closer look

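Outside the chromosomes used for the regions, the 8 lists held 29 peaks, on chromosome Y in both cultures and on the mitochondrial genome in MGE cultures. They were noted because they form a signal that no comparison used, and no CTX-restricted region rests on them.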

How the results depend on the processing

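The number of CTX-restricted regions was 5491, and it was 906 with a −log10 q of at least 5 and 1547 at equal called bases. Leaving out each library in turn gave 5604 to 8520, with 8509 without CTX KCl replicate 1 and 8520 without CTX unstimulated replicate 1. The share at gene ends was 10.8% at the stricter q, 7.82% at equal bases, 11.2% within 5 kb, and 6.22% to 8.2% with a library left out. The KCl difference in summed length turned positive at the stricter q (0.0313 Mb), with peaks merged over 500 bp (0.00309 Mb) and at equal bases (0.0442 Mb). With a library left out it ran from -0.615 to 0.622 Mb, with 0.504 without CTX KCl replicate 1, 0.622 without CTX unstimulated replicate 2, 0.00237 without MGE KCl replicate 1 and 0.101 without MGE KCl replicate 2. With pairing by replicate number as a block it was -0.0104 Mb, with an exact paired p of 0.5, the smallest that 2 pairs allow. Shared numbers alone do not show that libraries were paired. The share of longer regions was 14.1% with merging over 500 bp, 18.2% at equal bases and 14.8% to 47.1% with a library left out. For shorter regions it was 9.49% at the stricter q, 10.9% at equal bases and 12.1% to 46.4% with a library left out. Genes with a CTX-restricted region at the stricter q numbered 8 projection neuron factors (20%) and 2 MGE and GABAergic genes (6.67%). Astrocyte genes numbered 4 (20%) and oligodendrocyte genes 2 (12.5%), against 2.93% of all genes in that setting. Equal bases gave 13 projection neuron factors (32.5%) and 4 astrocyte genes (20%), against 4.29% of all genes. With a library left out these lists gave 25 to 36, 6 to 12, 7 to 10 and 7 to 11 genes, and 11 oligodendrocyte genes came without CTX unstimulated replicate 1. The causes were not tested. Read depth is unknown, and the lists do not show how far below threshold an absent peak was.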
